A study of Rattus norvegicus with 11 samples.

Results

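Which exons a myocyte keeps is decided by RNA-binding proteins, and 41 genes for such splicing regulators are described here in ventricular myocytes of female and male rats. They were picked by a rule on gene names from the 17257 rows of the authors' deposited table, with earlier results of these data known. The names cover 11 SR proteins, 16 heterogeneous nuclear ribonucleoproteins (hnRNPs), 3 Muscleblind-like proteins, 6 CELF proteins, 3 RBFOX proteins, and RBM20 and RBM24. Of the 41 genes, 39 had a mean above 0 and were tested by the authors. Celf3 and Hnrnpab were listed at 0. Some genes used by every cell, such as Rbm39, were listed at 0 as well, so a 0 in this table was not read as absent expression.

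The libraries came from 5 female and 6 male wild-type Sprague Dawley rats aged 3 to 4 months. Myocytes were obtained by Langendorff perfusion, kept on dishes for 45 minutes with no treatment and flash frozen. The study's design text calls the libraries biological replicates of each sex, and the design asks how gene expression in these contractile cells differs between females and males. Total RNA was sequenced after depletion of ribosomal RNA.

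SR proteins carry RNA recognition motifs and a domain rich in arginine and serine, and they mostly promote the use of the exons they bind. The hnRNPs coat nascent transcripts and often oppose SR proteins at neighbouring sites. Muscle adds its own layer. MBNL and CELF proteins act against each other in the change from fetal to adult exons after birth, RBFOX proteins help to fix the adult pattern, and RBM20 represses exons of titin and of calcium-handling genes. RBM24 promotes muscle-specific exons.

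The values used are the authors' mean normalized counts, which are read counts divided by a size factor for each library. They are not divided by transcript length, so they are compared between the sexes within a gene and not between genes. Size factors ran from 0.972 to 1.14 in females and from 0.811 to 1.17 in males, with an exact two-sided permutation p = 0.442. In 4428 genes with low means, reads per library could be read from the digits of the group means, and these summed to between 55712 and 62086 in female libraries and between 46598 and 66275 in male libraries. Rows that carry only an Ensembl identifier held 50.7% of the summed female means and 57.5% of the summed male means. Myh6, Actc1 and Tnnt2, which mark cardiac muscle, had authors' means of 1330868, 693485 and 621679 in females, against 831771, 631497 and 635109 in males, so the labelled cell type carried its defining transcripts in both sexes.

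Regulators that differed between the sexes were mostly lower in females, and RBM20 alone was higher. By the authors' deposited table, calls were made for 8 of 39 members, which passed an adjusted p under 0.05, against 14.5% of all 13346 genes tested. Of these, 7 fell in females, where 7.76% of all genes did, and 1 rose, where 6.71% of all genes did. Those that fell were Srsf1, Srsf10, Hnrnpa2b1, Hnrnpa3, Hnrnpf, Hnrnpr and Mbnl2, and the one that rose was Rbm20. All 8 had a mean above 500, and calls are more frequent at such means. Of the 28 members with a mean of at least 500, 28.6% were called in either direction, near the 25.2% of all genes of that level. By direction, 25.0% were lower, against 13.5% of all genes of that level, and 1 was higher, where 11.7% of all were. With a mean of at least 50, 8 of 33 members were called, 7 lower and 1 higher, against 20.5% of all such genes, 10.8% lower and 9.69% higher. The median log2 fold change (female over male) was -0.23 over the 39 members and -0.01 over all genes tested, and 28 members were below 0 and 11 above it. Each change was modest, and only Srsf10 and Hnrnpa3 passed a fold of 1.5. At an unadjusted p under 0.05 there were 14 of 39 members, where 27.3% of all genes tested were. No test of the members as a set was made. The means of the called members were too high for reads per library to be recovered, so these rest on group means and the authors' test.

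**Figure D1:**
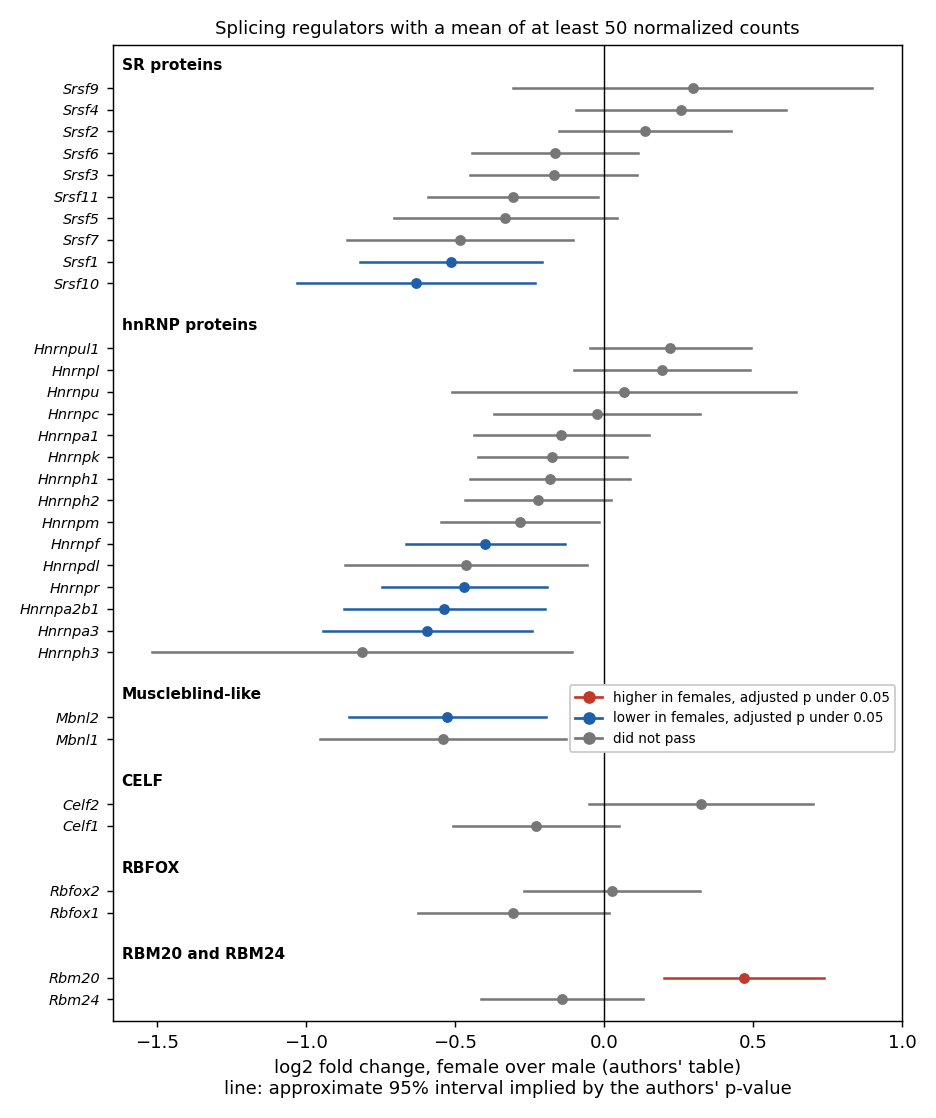
Log2 fold change, female over male, of the 33 splicing regulators with a mean of at least 50 normalized counts, by family, from the authors' deposited table. Lines are approximate 95% intervals implied by the authors' p-values; 7 genes in blue were lower and Rbm20 in red was higher in females at an adjusted p under 0.05, and 24 of the 33 points lie below 0.

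In bulk samples such as these, fewer cells of a type and less RNA per cell cannot be told apart. Markers of other cells also differed between the sexes. Over all genes tested, 7.76% were lower and 6.71% higher in females. Of 9 fibroblast markers tested, 3 were lower and none higher in females, and their summed mean was 16410 in females and 23873 in males. Those lower were Col3a1, Postn and Col1a1, all of the extracellular matrix, and Col3a1 had authors' means of 3915 in females and 10722 in males. Most of the gap in the fibroblast sum came from Col3a1 alone. Gsn and Dcn, the other fibroblast markers with the highest means, had 6740 and 3902 in females, against 4758 and 5594 in males, and did not pass. Col1a2 was listed at 0. Of 8 proliferation markers 7 were lower, with a summed mean of 262 in females and 1071 in males. Mki67, a marker of cycling cells, had authors' means of 103 in females and 409 in males. Endothelial markers summed to 22558 in females and 22182 in males, with 2 of 10 higher and 1 lower. Smooth muscle and pericyte markers summed to 14980 in females and 13914 in males, and leukocyte markers to 879 in females and 1104 in males, with 0 of 10 and 0 of 9 called in the authors' DESeq test. Of 12 cardiomyocyte markers, Myh6 and Ryr2 were higher and none lower, with a sum of 4365802 in females and 3632942 in males. Most of that gap came from Myh6. All 12 had a mean of at least 500, and their called share of 16.7% was below the 25.2% of all such genes. The splicing regulators are made by many cell types, and the part of other cells in their values was not tested.

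Promoter sequences are given for some of the members that fell together, to show what their start regions hold. Hnrnpa3 and Hnrnpf, which also fell, are not shown. RefSeq (GRCr8) gave 41 promoter windows for 36 of the 41 members, each from 250 bases before to 50 bases after a start, and Rbm20, Celf2, Celf4, Rbfox2 and Rbfox3 had none. The windows were searched on both strands for 10 motifs, and capitals mark matches to the CCAAT box (CCAAT or ATTGG) and the GC box (GGGCGG or CCGCCC). Where RefSeq listed 2 starts, as for Mbnl2 and Srsf10, the upstream one is shown.
Srsf1 (chr10:73336248-73336547, plus strand): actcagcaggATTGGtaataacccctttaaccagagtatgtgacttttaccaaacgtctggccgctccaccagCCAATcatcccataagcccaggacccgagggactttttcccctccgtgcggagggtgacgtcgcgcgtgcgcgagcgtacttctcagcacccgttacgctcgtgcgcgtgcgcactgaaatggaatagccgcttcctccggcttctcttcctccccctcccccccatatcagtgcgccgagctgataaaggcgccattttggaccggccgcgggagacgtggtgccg
Srsf10 (chr5:153372066-153372365, plus strand): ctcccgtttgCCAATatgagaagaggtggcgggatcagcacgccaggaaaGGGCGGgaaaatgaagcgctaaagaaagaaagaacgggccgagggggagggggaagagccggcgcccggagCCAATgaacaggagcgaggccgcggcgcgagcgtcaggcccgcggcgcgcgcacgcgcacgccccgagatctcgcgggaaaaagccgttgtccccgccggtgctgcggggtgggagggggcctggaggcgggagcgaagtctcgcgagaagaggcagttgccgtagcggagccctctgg
Hnrnpa2b1 (chr4:81875837-81876136, minus strand): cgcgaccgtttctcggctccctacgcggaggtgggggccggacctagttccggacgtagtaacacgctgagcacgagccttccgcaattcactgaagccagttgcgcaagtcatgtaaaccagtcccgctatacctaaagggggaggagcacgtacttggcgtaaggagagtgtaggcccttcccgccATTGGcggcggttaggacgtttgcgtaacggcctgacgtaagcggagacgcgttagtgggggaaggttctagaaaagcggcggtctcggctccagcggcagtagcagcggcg
Hnrnpr (chr5:153826269-153826568, plus strand): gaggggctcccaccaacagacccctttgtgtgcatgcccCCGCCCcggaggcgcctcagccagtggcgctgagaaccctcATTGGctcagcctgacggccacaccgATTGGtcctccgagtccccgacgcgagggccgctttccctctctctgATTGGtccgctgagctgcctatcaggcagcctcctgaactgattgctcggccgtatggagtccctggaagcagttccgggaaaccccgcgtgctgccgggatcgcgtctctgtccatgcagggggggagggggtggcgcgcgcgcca
Mbnl2 (chr15:103791938-103792237, plus strand): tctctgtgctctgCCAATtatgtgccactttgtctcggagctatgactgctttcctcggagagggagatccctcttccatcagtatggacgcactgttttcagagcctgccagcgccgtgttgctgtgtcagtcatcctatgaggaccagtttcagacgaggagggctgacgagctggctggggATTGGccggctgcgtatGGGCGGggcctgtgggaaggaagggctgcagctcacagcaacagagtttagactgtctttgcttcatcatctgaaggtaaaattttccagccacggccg

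CCAAT boxes stood in each of the windows shown, once in Hnrnpa2b1, at 62 bases before the start, and 3 times in Hnrnpr. Over all the members that fell, 10 of 11 windows held a CCAAT box, and over the other members 16 of 30 did. The window without the box among members that fell belonged to Hnrnpf, which is not among those shown. Windows of the same gene are not independent. By gene, 7 of 7 members that fell and 15 of 29 others had such a window, against 3716 of 9856 tested genes. Among all 33469 promoter windows 37.5% held it, and among those of tested genes 36.8%. The share was 38.8% for genes higher and 35.7% for genes lower in females over the whole table, so across all genes the box was not more frequent in those that fell. The GC box was in 70.7% of members' windows and in 58.7% of those of tested genes, and in 33.1% of all windows. TATAAA was in 14.6% of members' windows, against 7.76% of those of tested genes and 14.2% of all. CCGGAAG, an ETS site, was in 17.1% of members' windows, against 15.2% of those of tested genes and 8.75% of all, and CACGTG, an E box, in 12.2%, against 8.51% of those of tested genes and 6.42% of all. TGACGTCA, a cyclic AMP response element, was in 2.44% of members' windows, against 2.95% of those of tested genes and 1.83% of all. A MEF2 site was in 2.44% of members' windows, against 2.95% of those of tested genes and 3.84% of all. The NRF1 site, the estrogen response element and the androgen or glucocorticoid response element had a match in 0 of 41 windows of members, against 1.70%, 0.0194% and 0.300% of those of tested genes and 0.852%, 0.0269% and 0.439% of all. Each motif was searched separately, so a base could count in more than one. These matches describe the letters only.

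Among SR proteins, Srsf1 and Srsf10 were lower in females, and the others did not pass. With a mean of at least 500, 2 of 8 SR genes were called, near the 25.2% of all such genes. Srsf1, the founding member of the family, which in mouse heart is needed for the postnatal splicing of Camk2d, had authors' means of 2251 in females and 3218 in males. Its log2 fold change was -0.52, with an approximate 95% interval from -0.82 to -0.21 and adjusted p = 0.0140 per the authors' deposited table. Srsf10, which turns from activator to general repressor when it loses its phosphates, as after heat shock, had authors' means of 929 in females and 1439 in males. That was the largest fold of the called members, a log2 fold change of -0.63 with adjusted p = 0.0211 per the authors' deposited table. Srsf7, which also takes part in the export of messenger RNA, had authors' means of 303 in females and 424 in males, a log2 fold change of -0.48 that missed the threshold with adjusted p = 0.0711 per the authors' deposited table.

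The SR genes with the most reads were Srsf5, Srsf1 and Srsf3. Srsf5 had authors' means of 2665 in females and 3356 in males, and Srsf3, the smallest SR protein, 2312 in females and 2599 in males. Their log2 fold changes of -0.33 and -0.17 had adjusted p = 0.257 and 0.509 per the authors' deposited table. For Srsf3 the approximate interval ran from -0.45 to 0.11 on the log2 scale. Srsf6 and Srsf11 had log2 fold changes of -0.17 and -0.31, and Srsf2 and Srsf4 of 0.14 and 0.26, and none of them passed per the authors' deposited table. Summed over the 11 genes, the SR means came to 13777 in females and 16739 in males, a ratio of 0.823.

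**Figure D2:**
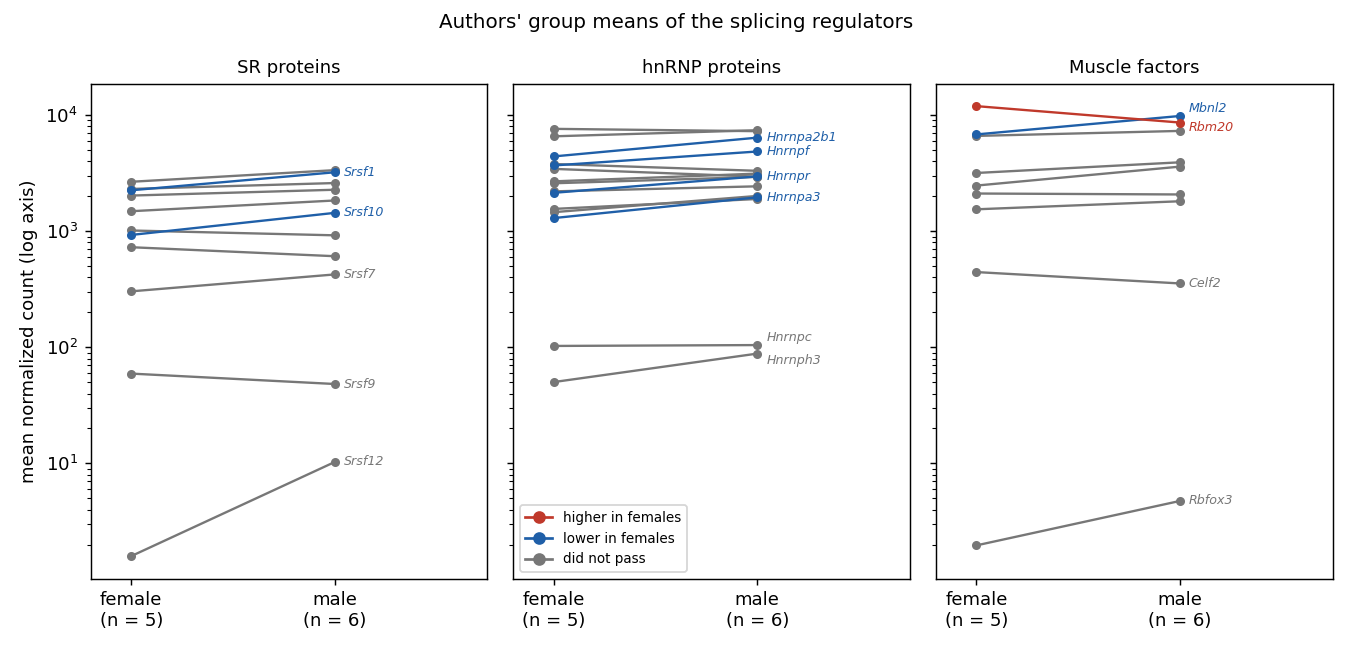
Authors' mean normalized counts on a log axis in females (left of each panel, n = 5) and males (right, n = 6) for SR proteins, hnRNP proteins and the muscle factors with a mean of at least 1, with a line for each gene. The 7 blue lines were lower and the red line of Rbm20 was higher in females at an adjusted p under 0.05, and the line of Rbm20 crosses that of Mbnl2.

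Among hnRNPs, 4 of 15 tested genes were lower in females and none was higher, against 7.76% lower and 6.71% higher over all genes tested. All 4 were among the 13 with a mean of at least 500, where 13.5% of all genes were lower. In either direction 30.8% of those 13 were called, near the 25.2% of all such genes. Hnrnpa2b1, whose protein binds and sorts messenger RNA, had authors' means of 4407 in females and 6394 in males, and Hnrnpa3, of the same A/B group, 1298 in females and 1958 in males. Their log2 fold changes were -0.54 and -0.59, with adjusted p = 0.0210 and 0.0138 per the authors' deposited table. Hnrnpf, which binds runs of G, had authors' means of 3684 in females and 4859 in males, a log2 fold change of -0.40 with adjusted p = 0.0300 per the authors' deposited table. Hnrnpr had 2141 in females and 2966 in males, a log2 fold change of -0.47 with an approximate interval from -0.75 to -0.19 and adjusted p = 0.0130 per the authors' deposited table. The close relatives of Hnrnpf that also bind G runs, Hnrnph1 and Hnrnph2, had log2 fold changes of -0.18 and -0.22 and did not pass, with adjusted p = 0.433 and 0.242 per the authors' deposited table. The RefSeq table of the assembly GRCr8 places Hnrnph2 on the X chromosome. Members of this family have near-identical copies and processed pseudogenes, so reads could have been divided among them, and values of Hnrnpa1, Hnrnpa3, Hnrnpc, Hnrnph1 and Hnrnph2 are uncertain for that reason.

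The hnRNP genes with the most reads did not pass, apart from Hnrnpa2b1. Hnrnpu, a chromatin-bound protein needed for splicing in the mouse heart, had authors' means of 7613 in females and 7270 in males, and Hnrnpk, which binds C-rich RNA, 6565 in females and 7407 in males. Their adjusted p-values were 0.955 and 0.420 per the authors' deposited table. The approximate interval of Hnrnpu ran from -0.51 to 0.64 on the log2 scale. Such intervals are unreliable where the fold is near 1, so this one is not compared with other members. Hnrnpl, which binds CA repeats, and Hnrnpul1 leaned the other way with log2 fold changes of 0.19 and 0.22 and adjusted p = 0.452 and 0.309 per the authors' deposited table. Hnrnpa1, Hnrnpm and Hnrnpdl had log2 fold changes of -0.14, -0.28 and -0.46, and their adjusted p-values of 0.618, 0.148 and 0.114 missed the threshold per the authors' deposited table. The row named Hnrpd, an older symbol outside the naming rule, had a log2 fold change of -0.21 and adjusted p = 0.438 per the authors' deposited table. The 16 hnRNP rows summed to 43587 in females and 49722 in males, a ratio of 0.877.

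In 10 members reads were known in every library, and 4 of these had a mean of at least 1, namely Hnrnph3, Srsf9, Srsf12 and Rbfox3. Hnrnph3, a relative of Hnrnpf, had normalized read counts of 72.2, 79.7, 36.4, 16.5 and 46.3 in the female libraries a to e, against 83.5, 105, 123, 39.2, 100.1 and 78.9 in the male libraries a to f. The sexes overlapped, since male library d lay below 3 of the 5 female libraries while the other male libraries lay at 78.9 or above, next to or past the highest female library. The mean was 50.2 ± 26.0 (SD, n = 5) in females and 88.3 ± 28.7 (SD, n = 6) in males, with an exact two-sided permutation p = 0.0519, and 0.530 adjusted over the genes with recovered reads. Of those genes, 9.17% had an exact permutation p under 0.05. With 1 library left out the exact permutation p ran from 0.0159 to 0.114, and it was 0.0159 without male library d and 0.0381 without female library b. The adjusted p for Hnrnph3 was 0.110 per the authors' deposited table.

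Srsf9, an SR protein with a short arginine and serine domain, had normalized read counts of 83.7, 58.8, 55.5, 61.7 and 37.0 in the female libraries, against 47.7, 30.8, 27.6, 59.9, 72.0 and 51.8 in the male libraries. The ranges overlapped widely, and the mean was 59.4 ± 16.7 (SD, n = 5) in females and 48.3 ± 17.0 (SD, n = 6) in males, with an exact permutation p = 0.3203. With 1 library left out the exact permutation p ran from 0.143 to 0.638 and the difference, female minus male, from 4.97 to 16.6, the lowest being without female library a and the highest without female library e. Srsf12, a low-abundance relative of Srsf10, had 7.05, 0.905, 0, 0 and 0 in the female libraries, against 5.97, 1.81, 19.0, 29.9, 0 and 4.93 in the male libraries. Male libraries c and d held 20 and 29 of the 62 male reads. Its exact two-sided permutation p was 0.152, and it ran from 0.0476, without female library a, to 0.278 with 1 library left out. Hnrnpc, which binds runs of U, had 96.0, 106, 109, 101.8 and 100.9 in the female libraries, with a narrow spread, and its male reads could not be told apart among several solutions. Its group means were 102.7 in females and 104.5 in males.

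**Figure D3:**
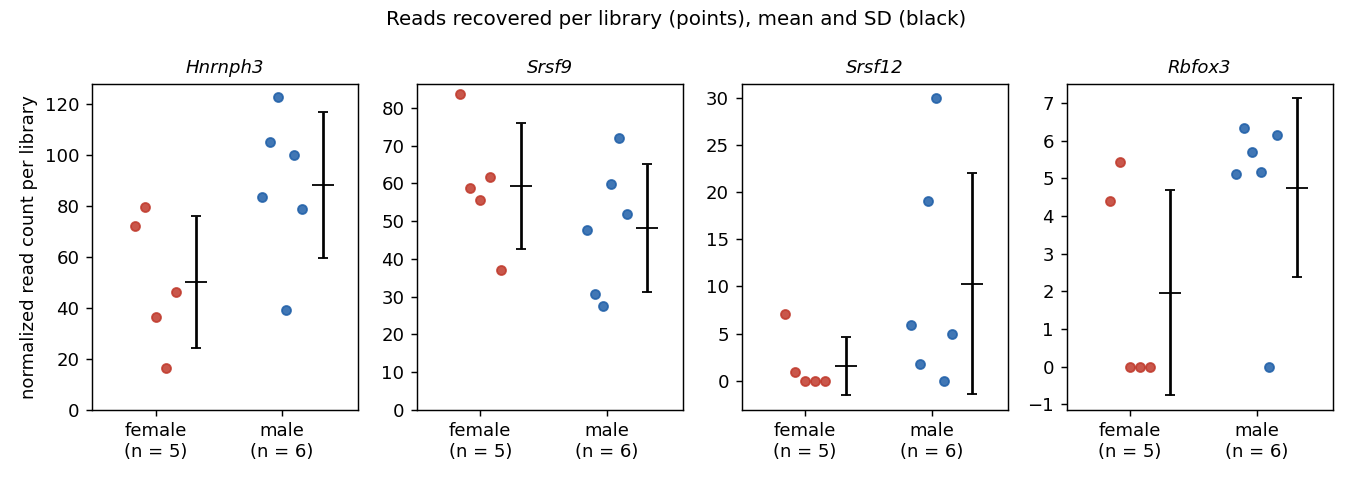
Normalized read count per library of Hnrnph3, Srsf9, Srsf12 and Rbfox3 in 5 female (left) and 6 male (right) libraries, with the mean and SD in black. The sexes overlap in each gene, and Srsf12 and Rbfox3 have no read in 3 of the 5 female libraries.

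Of the 3 Muscleblind-like genes, Mbnl2 fell in females, and the family's summed mean was 9289 in females and 13426 in males. Mbnl2 had authors' means of 6817 in females and 9827 in males, a log2 fold change of -0.53 with an approximate 95% interval from -0.86 to -0.20 and adjusted p = 0.0201 per the authors' deposited table. Mbnl1, among the paralogues sequestered by expanded CUG repeats in myotonic dystrophy, had 2472 in females and 3599 in males. Its log2 fold change of -0.54 was as large, but its adjusted p of 0.0624 missed the threshold per the authors' deposited table. With genes below a mean of 50 left out of the adjustment, its adjusted p was 0.0443. Mbnl3, an X-linked relative used mainly in fetal tissue, had no read in females and 2 reads in a single male library, too few for a fold.

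CELF genes showed no call in the authors' DESeq test, with 0 of 5 tested at an adjusted p under 0.05. At an unadjusted p under 0.05 there were 0 as well. Over all genes tested 14.5% were called, so 0 among so few genes allows no statement on the family. Celf1, which favours fetal exons in heart, had authors' means of 1544 in females and 1811 in males, and Celf2 445 in females and 355 in males. Their log2 fold changes of -0.23 and 0.33 had approximate intervals from -0.51 to 0.05 and from -0.05 to 0.70, with adjusted p = 0.303 and 0.273 per the authors' deposited table. Celf3 was listed at 0, and the remaining CELF genes, known from brain, had at most 5 reads in either sex. Celf4 had no read in females and 2 reads in males, Celf5 had 5 reads in females and 1 in males, and Celf6 had 3 reads in females and none in males. Each of these counts came from 1 library.

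RBFOX genes likewise had 0 of 3 calls in the authors' DESeq test, and 0 at an unadjusted p under 0.05. With 14.5% of all genes tested called, 3 genes are too few for a statement on the family. Rbfox1 had authors' means of 3173 in females and 3921 in males, a log2 fold change of -0.31 with adjusted p = 0.213 per the authors' deposited table. Rbfox2 had 2111 in females and 2073 in males. The approximate log2 interval of Rbfox2, from -0.27 to 0.32, is unreliable so near a fold of 1. Its log2 fold change of 0.03 turned below 0 when the sexes were scaled to equal sums over rows with a symbol, a shift of 0.06. Rbfox3, whose protein NeuN marks neurons, had normalized read counts of 4.40, 5.43, 0, 0 and 0 in the female libraries, against 5.11, 6.34, 5.71, 5.16, 0 and 6.16 in the male libraries. Most male libraries lay with the highest female ones, and the exact two-sided permutation p was 0.0823. It ran from 0.0238 to 0.152 with 1 library left out, and was 0.0238 without male library e and 0.0476 without female library b. Neuronal and glial markers were as low, with a summed mean of 76.6 in females and 61.4 in males over 12 genes, 0 of 11 tested called in the authors' DESeq test, and Elavl3 listed at 0.

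Rbm20 was the member that rose in females. Mutations of the splicing repressor it encodes cause dilated cardiomyopathy in humans, and its loss in rats gives giant titin isoforms. Its authors' means were 11947 in females and 8628 in males, a fold of 1.38. The log2 fold change of 0.47 had an approximate 95% interval from 0.20 to 0.74 and adjusted p = 0.0105 per the authors' deposited table. Rbm24 did not pass, with authors' means of 6617 in females and 7308 in males and adjusted p = 0.583 per the authors' deposited table. Differences between the log2 fold changes of 2 genes do not depend on how the sexes are scaled to each other. The log2 fold change of Rbm20 minus that of Mbnl2 was 0.997, so the ratio of Rbm20 to Mbnl2 means was 1.996 times as high in females as in males. The log2 fold change of Rbm20 minus that of Srsf1 was 0.98, and minus that of Rbm24 it was 0.61. These differences have no test.

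Other splicing genes were set beside the members by lists. Of 11 kinases and phosphatases that act on SR proteins, 2 were lower in females and none higher. Both were among the 9 with a mean of at least 500, and their share there, 22.2%, was below the 25.2% of all such genes called. Clk1, a kinase that phosphorylates SR proteins in the nucleus, had authors' means of 1516 in females and 2234 in males, with adjusted p = 0.00331 per the authors' deposited table, and Prpf4b had a log2 fold change of -0.47. The muscle-enriched Srpk3 had a log2 fold change of 0.01. Of 21 SR-related genes 6 were lower and 2 higher. Luc7l3 and Bclaf1 fell by 0.77 and 0.46 on the log2 scale, while Scaf1 and Srrm2, a scaffold of nuclear speckles, rose by 0.78 and 0.52 per the authors' deposited table. Of 48 other splicing regulators 11 were lower and 4 higher, among them Fmr1 (log2 fold change -1.40), Ptbp3 (-1.14) and Rbm7 (-0.64) lower and the branch-point binding protein Sf1 (0.60) higher per the authors' deposited table. Both these lists had medians below 0, at -0.21 and -0.21, against -0.01 over all genes tested. Among genes with a mean of at least 500 the medians were -0.22 for the SR-related and -0.08 for the other regulators. Over all genes of that level the median was -0.02. With a mean of at least 500, 29.8% of the genes of both lists were lower, against 13.5% of all such genes.

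In the core of the spliceosome calls went both ways. Over 70 core genes, 10 were higher and 7 lower in females, with a median log2 fold change of 0.11. Of those with a mean of at least 500, 27.3% were called, near the 25.2% of all such genes. By direction, 11.7% of all genes of that level were higher and 13.5% lower. Of 19 genes of the U2 particle 5 were higher and 1 lower. Among the 14 of these with a mean of at least 500, 3 were higher and 1 lower. Sf3a1 had authors' means of 3235 in females and 1997 in males, Cherp and Sf3b3 had log2 fold changes of 0.85 and 0.49, and the helicase Ddx46 fell by 0.47 in log2 units per the authors' deposited table. In the U4, U5 and U6 particles and the Prp19 complex, with 38 genes, 4 were higher and 2 lower. All 6 were among the 32 with a mean of at least 500. Prpf8, the protein at the catalytic centre, had authors' means of 7068 in females and 4303 in males, with adjusted p = 5.7e-05 per the authors' deposited table. Xab2 and Prpf6 were higher by 0.79 and 0.41 and Prpf18 fell by 0.58 in log2 units per the authors' deposited table. Of 13 U1 and Sm genes 4 were lower and 1 higher, all 5 among the 9 with a mean of at least 500. The small ring proteins Snrpe, Snrpd1 and Snrpf fell by 0.57, 0.56 and 0.51, and Snrpb rose by 0.52 in log2 units per the authors' deposited table. Among 11 exon junction and nonsense-mediated decay genes 2 were lower, Rbm8a and Upf2, with log2 fold changes of -0.57 and -0.63 per the authors' deposited table. Both were among the 8 with a mean of at least 500, and their share there, 25.0%, was near the 25.2% of all such genes called. Whether the core and the regulators differ from each other in direction was not tested.

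**Figure D4:**
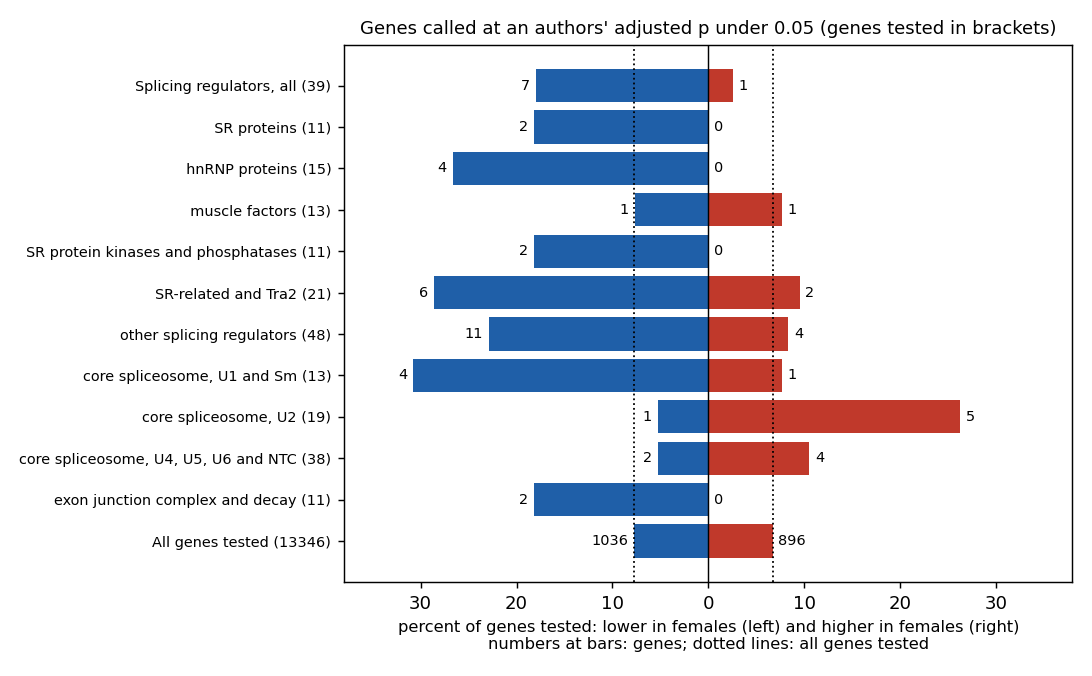
Percent of genes tested that were lower (left, blue) or higher (right, red) in females at an authors' adjusted p under 0.05, for the splicing regulators, their families and other splicing lists, with the number of genes at each bar. Dotted lines mark the 7.76% lower and 6.71% higher over all genes tested; the regulators have 7 lower and 1 higher, and the U2 list 1 lower and 5 higher.

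Transcripts that these factors are known to splice were read only as totals per gene, and no isoform was measured. Of 16 genes spliced under RBM20 control in rodent heart, 6 were lower and 1 higher in females. All 16 had a mean of at least 500, where 13.5% of all genes were lower and 11.7% higher. Their median log2 fold change was -0.09, against -0.02 over all genes of that level. Rtn4, Pdlim5, Fnip1 and Nexn fell by 0.51, 0.45, 0.79 and 0.86 in log2 units per the authors' deposited table. Ryr2, the calcium release channel, had authors' means of 127126 in females and 98148 in males, with adjusted p = 0.0491 per the authors' deposited table. Camk2d, whose exons respond to both RBM20 and Srsf1 in rodents, had means of 2385 in females and 3159 in males and missed the threshold with adjusted p = 0.0655 per the authors' deposited table. Of 17 genes spliced by MBNL or CELF factors in striated muscle, 5 were higher and none lower. All 5 were among the 12 with a mean of at least 500, where 11.7% of all genes were higher and 13.5% lower. Mef2d, Nfix and Mtmr1 were higher by 0.73, 0.67 and 0.43 in log2 units per the authors' deposited table. Mef2a leaned the other way, with a log2 fold change of -0.55, and missed the threshold with adjusted p = 0.0953 per the authors' deposited table. Of the 13 genes of this list with a mean of at least 50, 7 lay above 0 and 6 below. Their median log2 fold change was 0.005, and it was 0.11 for the 12 with a mean of at least 500. The lists were drawn from general knowledge of these factors and are not complete.

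In GRCr8, 16 of the 41 members overlap another RefSeq gene, among them the called members Srsf1, Rbm20 and Mbnl2. Srsf1 overlaps Vezf1, while Rbm20 and Mbnl2 each overlap 2 genes that are not protein-coding. Mbnl1 overlaps a protein-coding gene. Since it is not known whether reads were counted by strand, the values of such members are uncertain.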

How the data were processed

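Libraries were paired-end and stranded, from 650 ng of RNA whose integrity number was 9 or more and whose ribosomal part had been removed, per the labels' protocols. The submitters' processing notes name FastQC, Trimmomatic 0.32, TopHat2 2.0.12, HTSeq 0.6.1, DESeq and the build rn6. The strand setting and the annotation used in counting are not given in the sources used here.

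Per the file headers, the authors' table gives mean normalized signal per gene (gene counts divided by size factors) over all libraries and in groups A and B. It also gives the deposited fold change as a linear ratio, its log2 value, a p-value and an adjusted p-value. Weights of 6 for A and 5 for B returned the mean over all libraries in each of the 13346 genes above 0, within a relative 1e-09, so A was read as the 6 males and B as the 5 females. The exchanged weights matched 0 genes. The adjusted p-value followed Benjamini-Hochberg over these genes. The planned mean per coding length was not computed, since no coding lengths were given, and levels are not compared between genes.

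Size factors and whole reads per library were searched from the digits of the group means, up to 60 in males and 110 in females, and up to 110 for members in males. In males 3949 of 3949 genes had a single solution, and in females 4633 of 4638. The search was tested on simulated data. Hnrnph3, above the male limit of the general search, had 1 solution. Libraries are known by sex and size factor only, and are lettered from a by falling size factor. Counting intervals were not used, so precision is given by SD or by the authors' p. Reads per library were compared with exact two-sided permutation tests in scipy 1.17.1, adjusted over the 3183 genes with recovered reads and a mean of at least 1. With 5 and 6 libraries the smallest p is 0.00433. After adjustment 0 of these genes passed, and 292 had an unadjusted p under 0.05. Intervals of log2 fold changes are approximate. They take the standard error as the log2 fold change over the normal score of the authors' p. Their width is therefore unreliable where the fold is near 1.

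The members and all gene lists were chosen with earlier results of these data known. The genes named are every member that passed, every muscle factor, the 3 members with the highest mean in each of the SR and hnRNP families, members with an adjusted p from 0.05 to 0.10, up to 4 called genes of each other list and the 3 marker genes with the highest mean of each marker list. Other members are named to account for the families. Hnrpd, Srpk3, Camk2d, Mef2a, Ryr2 as a transcript under RBM20 control, Rbm39, Postn and Col1a1 were named after their values were seen. Promoter sequences are from RefSeq (GRCr8). One called gene that the naming rule would include is not reported here.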

Additional observations from a re-analysis of the deposited data

Results flagged for a closer look

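In 10 members with reads known in every library, 13 groups of libraries with any spread were checked for a library far from the others of its sex, and 7 had one. For normally spread values chance gives about 1 in 20 groups, but most of these hold only a few reads. A group with all its reads in 1 library is flagged by construction, so that rate does not apply to it. The highest male value of Celf4 was 2.44 normalized counts in library e, with 0 in the other males. Celf5 had 4.78 in female library c and 1.23 in male library f, with 0 in the other libraries of the same sex. Celf6 had 2.72 in female library b and Mbnl3 had 1.81 in male library b, again with 0 in the others. Srsf12 had 7.05 in female library a, where the next female library had 0.905. Rbfox3 had 0 in male library e, where the next male library had 5.11.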

How the results depend on the processing

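No paired analysis was possible because the table holds group means whose columns carry no replicate numbers, and females and males are different animals. A threshold of 0.01 on the authors' adjusted p left 0 members called, 0 higher and 0 lower in females, and 18 genes on the other splicing and target lists, of 56 called there at 0.05. At an unadjusted p under 0.05 the authors' DESeq test has 14 members of 39, and 3648 of 13346 genes in all. Adding a fold of at least 1.5 left 2 members, 0 higher and 2 lower, and 22 genes on those other lists. The number of members called was 10 at a threshold of 0.10, 9 with genes of a mean under 10 or under 50 left out, 9 with genes under 500 left out (chosen after seeing the data) and 8 without rows that lack a symbol. Mbnl1 accounted for the added member when low genes were left out, with an adjusted p between 0.0361 and 0.0495. Scaling the sexes to equal sums changed the sign of 1 member, Rbfox2, centring on the median changed 0, and a pseudocount of 1 left 11 members above and 28 below 0. Of the members with reads per library and a mean of at least 1, 0 passed an exact permutation p under 0.05, on raw reads and on log2 values too, and 0 to 2 passed when 1 library was left out. The comparison of levels per coding length was not run. Members with fewer than 10 reads in a sex, such as Celf4, Celf5, Celf6 and Mbnl3, allow no statement on direction at this depth.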
